A study of Saccharomyces cerevisiae with 24 samples.

Results

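The data are the splicing curves of wild-type budding yeast, the fraction of nascent transcripts that had lost their intron at each position of RNA polymerase II downstream of the 3' splice site. The curves were taken from the 2 wild-type libraries of Single Molecule Intron Tracking (SMIT), out of 24 samples in the series. Each library listed 53 intron-containing genes, and 48 of them had a curve in both. The wild type was MATa his3Δ1 leu2Δ0 met15Δ0 ura3Δ0, untreated, in log phase at 30 °C in the rich medium YPAD. The nascent RNA came from isolated chromatin, was freed of DNA with DNase, and lost its polyadenylated part on oligo(dT) beads. The other libraries used here were 12 from strains that lack HTZ1, PUB1, THO2, RTT103, GBP2 or NPL3 (2 per strain) and 1 from the Control-AA strain at 0 min of rapamycin. The authors' long-read fractions of Control-AA came from 2 libraries treated with rapamycin (1 ug per ml) for 10 min, and introns were placed from the long reads of Control-AA and Nab2-AA, treated alike (2 libraries each). The labels do not say whether the libraries came from separate cultures, so p-values cover only the spread between these libraries.

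In SMIT an adapter is ligated to the 3' end of nascent RNA, where the polymerase stood, and a gene-specific forward primer reports whether the intron upstream was still present. Introns are removed by the spliceosome, which needs the 3' splice site to have been transcribed before it can join the exons. In budding yeast introns are few, and many of the most transcribed ones lie in ribosomal protein genes.

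Downstream of the 3' splice site there were 2839057 reads in replicate 1 and 987590 in replicate 2, and the 48 genes had at least 4503 and 1360 reads each. For 5 genes a library listed no position downstream of the 3' splice site, and they entered no comparison. These were NOG2, RPS9B and SAC6 in replicate 1 and RPL20A and RPS13 in replicate 2. In the other library their plateaus were 1.00 for NOG2 (ribosome assembly GTPase), 0.994 for RPS9B, 0.685 for SAC6 (fimbrin), 0.991 for RPL20A and 0.997 for RPS13. All fractions are spliced reads over all reads, as counted, unless the corrected fraction is named.

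The share of spliced reads rose sharply between positions 1 and 2 after the 3' splice site. Summed over the 48 genes, 0.953% of reads whose 3' end lay at position 1 were spliced in replicate 1 (exact 95% binomial interval 0.669 to 1.32%) and 1.18% in replicate 2 (0.721 to 1.81%). That was close to position 0, which had 0.899% (0.674 to 1.17%) in replicate 1 and 1.01% (0.577 to 1.63%) in replicate 2. Position -1 had 0.336% (0.154 to 0.637%) in replicate 1 and 1.99% (1.20 to 3.09%) in replicate 2, from 1 gene in each. Over all positions upstream of 0 the shares were lower than at position 1, 602 of 274007 reads in replicate 1 and 178 of 96825 in replicate 2. At position 2 the spliced share was 11.9% (10.96 to 12.8%) in replicate 1 and 23.2% (21.2 to 25.3%) in replicate 2. Spliced reads came from 7 genes in each library at position 1, and from 21 and 16 genes at position 2. At position 10 it was 38.4% (36.7 to 40.1%) in replicate 1 and 63.8% (61.3 to 66.3%) in replicate 2. The step between positions 1 and 2 was therefore present in both libraries, while the level at each position between 2 and 10 differed between them beyond counting error. These intervals cover counting error only, since PCR copies may be among the reads.

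Over genes, the median fraction spliced in bins of 10 nt was 0.0948 at positions 1 to 10, 0.400 at 11 to 20 and 0.529 at 21 to 30 in replicate 1. In replicate 2 it was 0.193, 0.566 and 0.752 in the same bins. By 201 to 210 nt the medians were 0.757 and 0.833. Most of the difference between the first bin and 201 to 210 nt thus lay within the first 30 nt in both libraries.

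**Figure D1:**
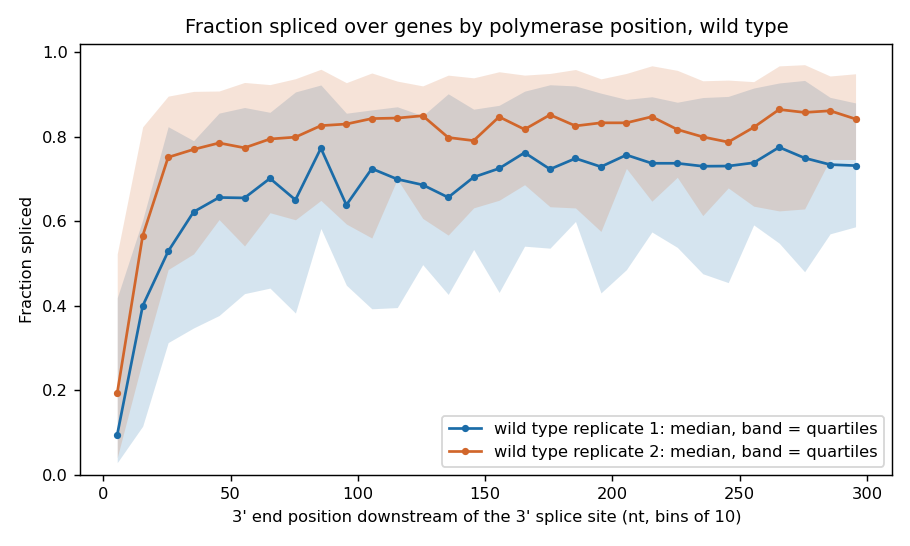
The x axis is the 3' end position in nt past the 3' splice site and the y axis the fraction spliced. Lines are medians over the genes with at least 10 reads in a bin of 10 nt (at most 48) and bands are the quartiles. Replicate 2 lies above replicate 1 in the first 30 nt, with medians of 0.752 and 0.529 at 21 to 30 nt.

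Each curve gave 3 measures. The plateau was the mean fraction over bins of 30 nt beyond 180 nt. Each bin had equal weight, so the plateau can differ from the fraction over all reads beyond 180 nt. Its bins lay wholly past the coding end in RUB1 (85 nt past the 3' splice site) and RIM1 (166 nt). In ACT1 (1118 nt) they lay wholly before it, so plateaus of different genes cover different parts of the transcript. Onset and midpoint were where the curve, in bins of 10 nt, first reached 10% and 50% of the plateau in 2 successive bins. A gene past the threshold in its first bin is given the bin's centre, 5.5 nt, which means within 1 to 10 nt.

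Onset came almost at once in nearly every gene. The median onset was 5.5 nt in both libraries, and 25 genes in replicate 1 and 32 in replicate 2 were past onset in the first bin, 23 of them in both. Onset lay at or before 20 nt in 47 genes of replicate 1 and in all 48 of replicate 2. The exception was YDL012C, at 32.4 nt in replicate 1 and 5.5 nt in replicate 2. Between libraries onset spread as much (pooled SD 3.81 nt) as between genes (SD of gene means 3.46 nt), so genes could not be ranked by it.

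The midpoint, 50% of the plateau, was reached at a median of 16.9 nt in replicate 1 and 10.5 nt in replicate 2. The midpoint was at or before 30 nt in 36 genes of replicate 1 and in 45 of replicate 2, with 35 in both. It was later in replicate 1 in 33 genes, earlier in 8 and equal in 7. The pooled SD between libraries was 12.7 nt against an SD of 13.7 nt between gene means, and the gene orders of the libraries had a Spearman correlation of 0.648 over 48 genes (the genes of a library share its preparation). Genes in the middle of the order could therefore not be ranked beyond the spread between libraries.

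**Figure D2:**
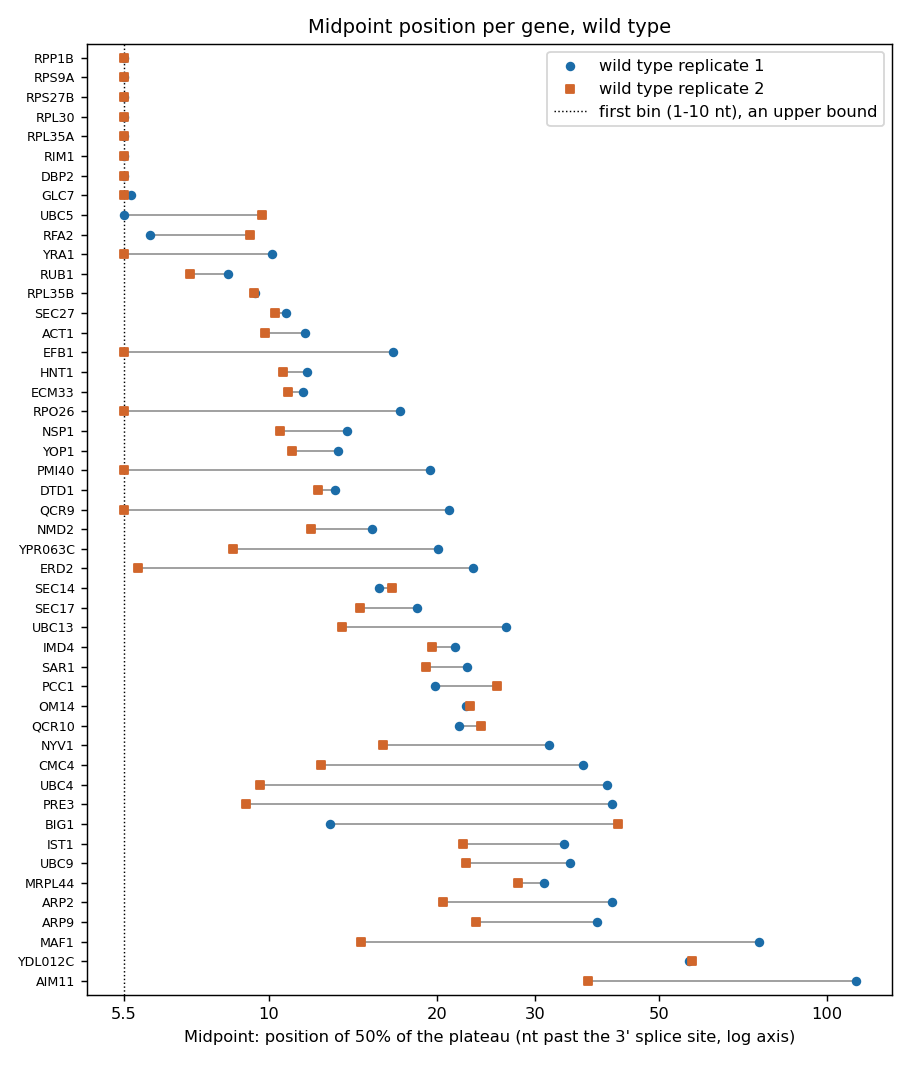
Each row is a gene, ordered by its mean midpoint on a log axis in nt past the 3' splice site; circles are replicate 1, squares replicate 2, and a line joins both. At the top 7 genes sit at 5.5 nt in both libraries, and at the bottom AIM11 and YDL012C lie past 30 nt in both.

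Some of the earliest and latest genes were shared by both libraries. DBP2 (a DEAD-box RNA helicase), RIM1 (a mitochondrial single-stranded DNA-binding protein) and 5 ribosomal protein genes, RPL30, RPL35A, RPS9A, RPS27B and RPP1B, were past the midpoint in the first bin of both libraries as counted. With the authors' corrected fraction 4 of these 7 genes stayed there in both libraries (DBP2, RIM1, RPL35A and RPS27B). DBP2, RPL35A and RPS27B had the fewest reads upstream of the 3' splice site for their downstream reads. Per 100 downstream reads RPL35A had 0.870 and 0.363, RPS27B 0.526 and 0.190 and DBP2 0 and 0.00437, against 31.5 and 26.3 for RIM1. Whether unspliced RNA of these genes was captured less well was not tested. RPS9A then had midpoints of 79.6 and 49.2 nt, among the 7 latest genes, and RPP1B 23.6 and 8.94 nt. As counted, the only genes past 30 nt in both were YDL012C, with midpoints of 56.7 and 57.4 nt, and AIM11, with 113 and 37.3 nt. MAF1, the repressor of RNA polymerase III, had the next highest mean, yet its libraries gave 75.6 nt in replicate 1 and 14.6 nt in replicate 2. YDL012C stayed at or below 0.176 in every bin up to 60 nt in both libraries. AIM11 was at 0.158 and 0.359 in positions 51 to 60. With the corrected fraction 7 genes lay past 30 nt in both libraries, YDL012C (58.9 and 57.6 nt) and AIM11 (115 and 89.3 nt) with ARP2, ARP9, MAF1, NYV1 and RPS9A.

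Plateaus differed far more between genes than between libraries. The median plateau was 0.790 in replicate 1 and 0.849 in replicate 2, and it ranged between 0.180 and 1.00 in replicate 1 and between 0.218 and 1.00 in replicate 2. The SD of gene means was 0.190 against a pooled SD between libraries of 0.0807, and the gene orders had a Spearman correlation of 0.909. In 14 genes the plateau was above 0.9 in both libraries (ACT1, DBP2, ECM33, EFB1, GLC7, IMD4, NMD2, PMI40, RPL35A, RPL35B, RPS27B, RPS9A, SEC27 and YRA1). In 6 it was below 0.6 in both (CMC4, MAF1, PCC1, RUB1, UBC4 and YDL012C). The fraction over all reads beyond 180 nt was higher for PCC1 (0.656 and 0.664) and RUB1 (0.738 and 0.804). CMC4, MAF1, UBC4 and YDL012C were below 0.6 in both libraries by that measure as well.

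The authors' corrected fraction gave lower plateaus, except for DBP2 in replicate 2, which was at 1.00 in both. Within a gene and library it shifts the log2 odds of splicing by a constant that is proportional to intron length. The corrected plateau had medians of 0.726 and 0.791, and 10 genes stayed above 0.9 in both libraries. The corrected midpoint had medians of 21.6 and 15.3 nt.

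The ribosomal protein genes had high plateaus and, as counted, early midpoints. The 6 members with a curve had a median plateau of 0.990 and a median midpoint of 5.5 nt, against 0.799 and 13.4 nt over all 48 genes. With the corrected fraction these were 0.960 and 11.7 nt (mean midpoints between 5.5 and 64.4 nt), against 0.719 and 20.7 nt. RPL30, whose protein is known to bind its own transcript and hold back its splicing, was at 0.523 and 0.720 in positions 1 to 10 and had plateaus of 0.862 and 0.934. RPP1B, an acidic protein of the ribosomal stalk, had plateaus of 0.858 and 0.889. The other 4 members, RPL35A, RPL35B, RPS9A and RPS27B, all had plateaus at or above 0.981 in both libraries. The plateau gives each bin equal weight, and the fraction over all reads from the start of its bins onward was higher for RPL30 and RPP1B. By that measure RPL30 was at 0.937 and 0.964. RPP1B was at 0.984 and 0.987, close to RPS9A at 0.979 and 0.987. Of these late measures only the plateau set RPP1B apart from RPS9A. The paralogs RPL35A and RPL35B differed at the start of the curve. At positions 1 to 10 RPL35A was at 0.963 and 0.981 and RPL35B at 0.193 and 0.190, and their midpoints were 5.5 nt or less and 9.4 nt in both libraries. Their plateaus were close, 1.00 in both libraries for RPL35A and 0.981 and 0.994 for RPL35B. Upstream of the 3' splice site RPL35A had 173 and 50 reads, or 0.870 and 0.363 per 100 downstream. RPL35B had 3397 and 1052, or 9.44 and 5.10 per 100. The part of unequal capture of unspliced RNA in the difference between these paralogs was not tested. How reads of near-identical paralogs were assigned is not given in the sources used here, so values of such pairs are uncertain.

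All 6 ribosomal protein genes had introns over 200 nt, and intron length went with the plateau over the whole set. Spearman's correlation of intron length with mean plateau was 0.787 over 48 genes as counted and 0.707 for the corrected fraction. The 15 introns over 200 nt had a median plateau of 0.988 (0.951 corrected) and a median midpoint of 7.82 nt. The 33 shorter introns had 0.719 (0.655 corrected) and 20.9 nt. The 9 long introns outside ribosomal protein genes had a median plateau of 0.986 and a median midpoint of 11.1 nt. Genes with more reads also had higher plateaus (Spearman 0.487), and earlier midpoints went with higher plateaus (-0.668). The part of amplicon length in these relations was not tested, since spliced and unspliced reads of a gene differ in length by the intron.

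**Figure D3:**
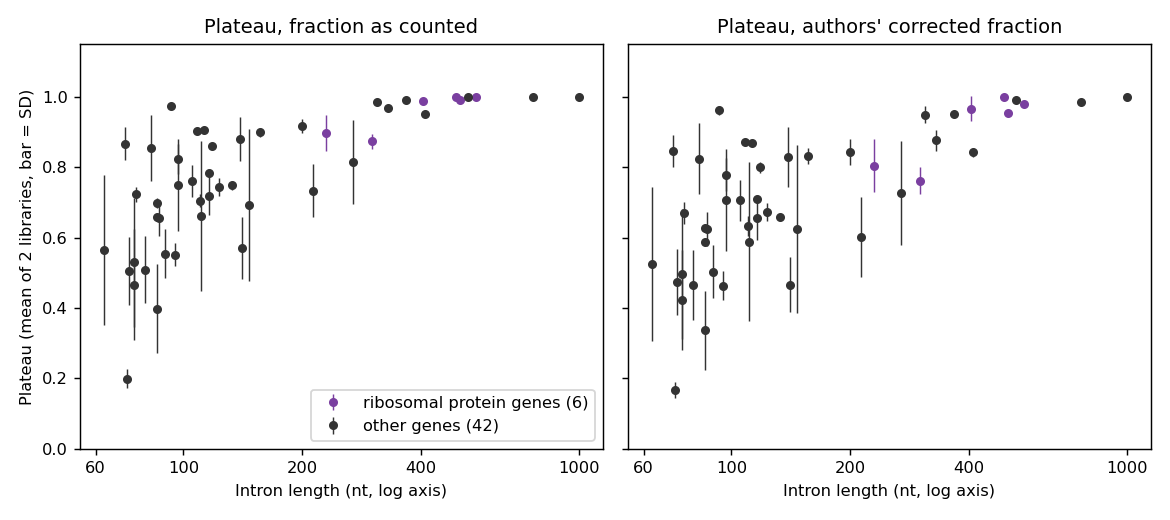
The x axis is intron length in nt (log axis) and the y axis the plateau; points are means of both libraries and bars their SD, for the fraction as counted on the left and the authors' corrected fraction on the right. Genes with introns over 200 nt, the 6 ribosomal protein genes among them, had a median of 0.988 as counted and 0.951 after correction.

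RNA processing and export genes also lay high. DBP2, with the longest intron of the set (1002 nt, chromosome XIV, 414912 to 415913, build sacCer3), had plateaus of 1.00 in both libraries. Upstream of the 3' splice site it had 0 and 1 reads, beside 38711 and 22858 downstream, and it was the only gene with 3 or fewer upstream in both libraries (medians over genes 4470.5 and 1161). YRA1, an adaptor for mRNA export with an intron of 766 nt (chromosome IV, 1236843 to 1237608), had plateaus of 0.999 in both libraries. Its first bin differed between them, 0.164 in replicate 1 and 0.877 in replicate 2. The 4 genes of this group (with NMD2 and NSP1) had a median plateau of 0.953. GLC7, the catalytic subunit of protein phosphatase 1, had plateaus of 0.999 in both libraries and midpoints of 5.66 and 5.5 nt.

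Cytoskeleton genes ranged widely. ACT1, which encodes actin and carries an intron of 309 nt (chromosome VI, 54378 to 54686), was at 0.0247 and 0.156 in positions 1 to 10 and at 0.786 and 0.941 in positions 11 to 20. Its midpoints were 11.6 and 9.83 nt and its plateaus 0.980 and 0.992. ARP2, a subunit of the actin-nucleating Arp2/3 complex, had midpoints of 41.2 and 20.5 nt with plateaus of 0.725 and 0.763. ARP9, known as a subunit of chromatin remodelling complexes, had midpoints of 38.7 and 23.5 nt with plateaus of 0.660 and 0.655. ACT1 was thus early and near 1, and both actin-related genes lay below it in plateau and after it in midpoint in each library.

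The ubiquitin and proteasome genes had a lower median plateau, 0.629 over 6 genes. The paralogous ubiquitin-conjugating enzymes UBC4 and UBC5 had plateaus of 0.574 and 0.528 for UBC4 and 0.604 and 0.504 for UBC5, a difference smaller than that between the libraries. Their midpoints were 40.4 and 9.64 nt for UBC4 and 5.5 and 9.70 nt for UBC5. UBC9, which conjugates SUMO, had midpoints of 34.6 and 22.5 nt. UBC13, an enzyme of K63-linked ubiquitin chains, had plateaus of 0.731 and 0.899. RUB1, a ubiquitin-like modifier, had plateaus of 0.437 and 0.573 and PRE3, a catalytic subunit of the proteasome, 0.791 and 0.775. Of these 6 genes UBC13, with an intron over 200 nt, was the highest in replicate 2, and PRE3 was the highest in replicate 1.

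Among membrane traffic genes the 7 members had a median plateau of 0.822. SEC27, a subunit of the COPI coat, had plateaus of 0.931 and 0.904 and midpoints of 10.7 and 10.3 nt. SEC14, a phosphatidylinositol transfer protein, had 0.908 and 0.890 and midpoints of 15.7 and 16.7 nt. Both genes repeated within 0.03 of plateau and 1 nt of midpoint.

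Mitochondrial genes had a median plateau of 0.713 over 6 genes, and 2 of them, MRPL44 and QCR10, were among the 5 that differed most between the libraries. CMC4, a protein of the intermembrane space, had the lowest plateau of all 48 genes in each library, 0.180 and 0.218. MRPL44, of the mitochondrial ribosome, was at 0.540 in replicate 1 and 0.846 in replicate 2. QCR10, a subunit of respiratory complex III, was at 0.413 in replicate 1 and 0.714 in replicate 2. QCR9, of the same complex, had 0.680 and 0.787, and OM14, of the outer membrane, 0.657 and 0.843. RIM1 had 0.788 and 0.921, so that in all 6 members replicate 2 lay above replicate 1.

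The remaining named genes came from several functions. The snoRNA host genes EFB1 (a translation elongation factor subunit) and IMD4 (an IMP dehydrogenase) had plateaus of 0.990 and 0.991 for EFB1 and 0.949 and 0.950 for IMD4. HNT1, a nucleotide hydrolase, was at 0.511 in replicate 1 and 0.813 in replicate 2, PCC1, of the KEOPS complex, at 0.355 and 0.578, and AIM11 at 0.400 and 0.660. MAF1 had plateaus of 0.576 and 0.443 and YDL012C 0.309 and 0.488. Over all reads beyond 180 nt MAF1 was lower in replicate 1 (0.354) than in replicate 2 (0.406), the reverse of its plateaus. Its midpoints depend on those plateaus. The 5 genes with the largest plateau difference between libraries were HNT1, MRPL44, QCR10, AIM11 and PCC1. All 5 had the lower plateau in replicate 1, as did 31 of the 48 genes. For PCC1 the fraction over all reads beyond 180 nt was nonetheless close, 0.656 in replicate 1 and 0.664 in replicate 2. The 15 genes not chosen by name lay between these extremes, with mean plateaus from 0.570 for NYV1 to 0.973 for PMI40 and mean midpoints from 7.69 nt for RFA2 to 28.0 nt for IST1.

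Within a gene the curves were not smooth. Over the first 180 nt the fractions in bins of 10 nt had a median Spearman correlation between libraries of 0.792 per gene (range 0.344 to 1.00). After the midpoint, 22 genes in replicate 1 and 14 in replicate 2 fell back below 50% of their plateau in at least 1 bin. In 11 genes this happened in the same bin of both libraries. UBC5 was at 0.0543 (313 reads) and 0.0606 (66 reads) in positions 31 to 40, against 0.390 and 0.566 in positions 21 to 30. UBC4 was at 0.104 (3862 reads) and 0.176 (1005 reads) in positions 71 to 80. NMD2, of nonsense-mediated decay, was at 0.289 in both libraries in positions 41 to 50, against plateaus of 0.904 and 0.909. The other genes were ARP2, CMC4, MRPL44, NYV1, QCR10, UBC13, UBC9 and YOP1. For these genes a single midpoint describes the curve incompletely.

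**Figure D4:**
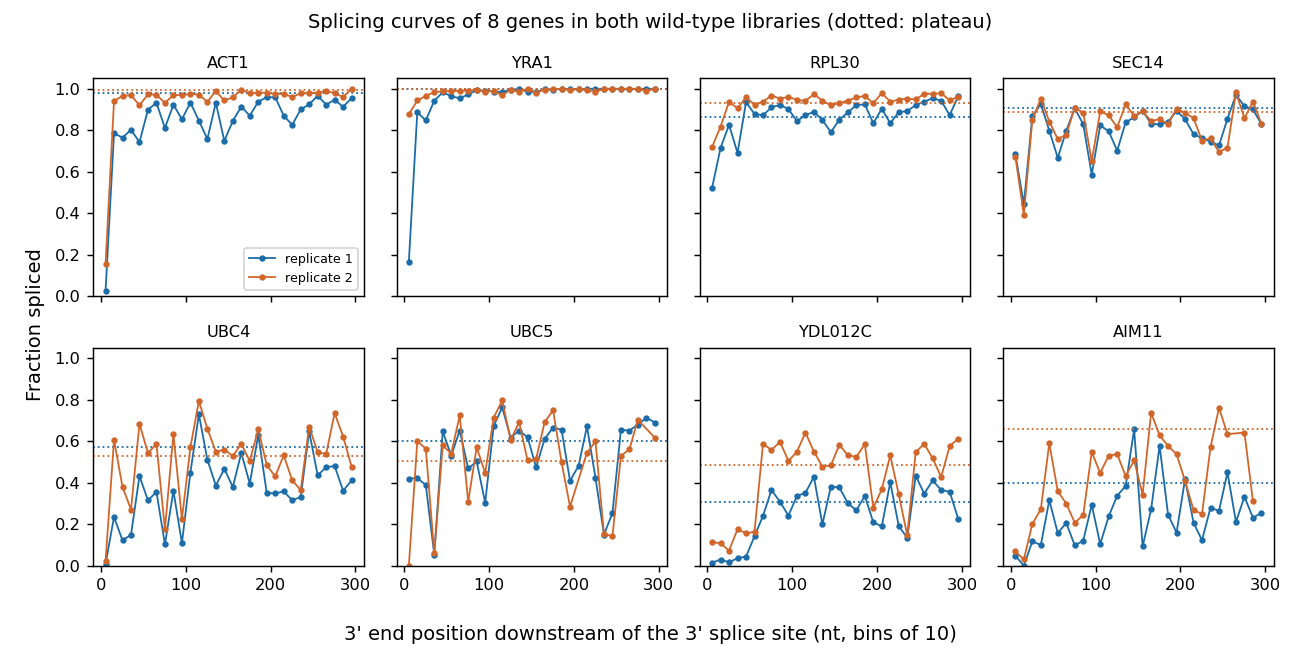
Each panel is a gene, with the 3' end position in nt on the x axis and the fraction spliced in bins of 10 nt on the y axis; dotted lines are the plateaus, which also use bins past 300 nt. ACT1 and YRA1 are at 0.786 or more by 11 to 20 nt, YDL012C is at or below 0.176 up to 60 nt, and UBC4 (71 to 80 nt) and UBC5 (31 to 40 nt) each dip in a bin shared by both libraries.

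The fraction spliced was higher late (beyond 180 nt) than early (1 to 90 nt). Over genes the median fraction was 0.759 late against 0.593 early in replicate 1 and 0.839 late against 0.704 early in replicate 2. The interaction of splicing state and window was tested with edgeR's quasi-likelihood test. The fitted log2 odds ratio of late over early was above 0 in all 48 genes, with a median of 1.46, and it was above 0 in each library separately in 46 genes. The exceptions were SEC14 in replicate 2 and DTD1 in replicate 1. Without a block, 1 of 48 genes (2.08% of those tested) passed a Benjamini-Hochberg adjusted p of 0.05, and 18 had an unadjusted p under 0.05. Both windows of a replicate are the same library, and with the replicate as a block 37 of 48 genes (77.1%) passed, all of them higher late. DESeq2, also fitted without the block, called 30 (62.5%), so the fits without a block differed widely. A paired fit by library in limma called 34 (70.8%). With counts scaled by TMM 28 genes were above 0 (median 0.11), and with DESeq2's size factors 34 (median 0.40), with 5 genes called higher late by each. Both scale the spliced and unspliced counts of a window separately. A rise shared by most genes is thereby partly scaled away, so these fits cannot show whether the general rise holds.

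YRA1 passed in both fits. It was at 0.999 in both libraries late, against 0.955 and 0.980 early, a log2 odds ratio of 5.49 (edgeR adjusted p = 0.0373, and 8.76e-13 with the replicate block). Few unspliced late reads entered the ratio of YRA1, since 0.9995 of its 13798 late reads in replicate 1 were spliced. The largest differences in fraction were in 5 other genes, all of which passed with the block and not without it. UBC9 was at 0.696 and 0.666 late, against 0.272 and 0.311 early (log2 odds ratio 2.38, edgeR adjusted p = 0.0562, with the block 6.4e-08). ARP9 was at 0.676 and 0.662 late, against 0.267 and 0.410 early (2.01, edgeR adjusted p = 0.107, with the block 5.64e-06). UBC13 was at 0.739 and 0.911 late, against 0.392 and 0.657 early. MRPL44 was at 0.689 and 0.877 late, against 0.365 and 0.625 early. AIM11 was at 0.365 and 0.602 late, against 0.131 and 0.237 early. In all 5 genes both late values lay above both early values.

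In other genes the early fraction was already near the late one. SEC14 was at 0.859 and 0.860 late, against 0.838 and 0.863 early (log2 odds ratio 0.10, edgeR adjusted p = 0.839, with the block 0.794). DBP2, RPL35A, RPL35B and RPS27B were at 0.997 or more late in both libraries, and RPL35B, the lowest of them early in replicate 1, was at 0.979 and 0.991 early. Their log2 odds ratios were nonetheless 2.97 to 5.00 with the block, and all 4 passed (edgeR adjusted p between 5.3e-07 and 0.000742), but none passed without it. RPL35A had few unspliced late reads, since 0.9998 of 9566 late reads in replicate 1 and 0.9997 of 3970 in replicate 2 were spliced. For DBP2 few unspliced reads entered the ratio. In replicate 1 96.9% of them lay at position 1, and replicate 2 had fewer than 20. RPS9A had the lowest early fraction of the 6 ribosomal protein genes in both libraries, with 0.979 and 0.987 late, against 0.692 and 0.870 early (log2 odds ratio 3.95, edgeR adjusted p = 0.0562, with the block 3.02e-12). With the block 5 of 6 ribosomal protein genes, 4 of 4 RNA processing and export genes, 3 of 3 cytoskeleton genes, 6 of 6 ubiquitin and proteasome genes, 4 of 7 membrane traffic genes, 5 of 6 mitochondrial genes and 1 of 2 snoRNA host genes passed, all higher late. These counts stand beside 77.1% over all genes and say nothing particular of a list.

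The 3' ends were not spread evenly but piled up at single positions, most of them shared between libraries. The position with the most reads was the same in both libraries in 33 of 48 genes and differed by over 30 nt in 10. The median share of a gene's reads at its top position was 5.22% in replicate 1 and 6.95% in replicate 2, and per-position read profiles had a median Spearman correlation between libraries of 0.859 (0.666 to 0.975). The top position lay at or before 90 nt in 20 genes of replicate 1 and 23 of replicate 2, between 91 and 180 nt in 14 and 15, and beyond in 14 and 10.

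In 6 genes 1 position held over 10% of the reads in both libraries. SEC27 had 19.1% (18.8 to 19.5%) and 24.7% (24.0 to 25.4%) of its reads at position 127, the most concentrated of all genes. ACT1 had 12.8% (12.6 to 13.0%) and 14.1% (13.7 to 14.5%) at position 65. RPS9A had 14.2% and 19.7% at position 237, IMD4 16.0% and 15.4% at position 136, PCC1 12.3% and 17.2% at position 120 and UBC5 10.3% and 15.4% at position 43. The reads at these positions were mostly spliced. At the top position SEC27 was at 0.987 and 0.967, against 0.883 and 0.872 in the 15 nt on either side, and UBC5 was at 0.651 and 0.589, against 0.245 and 0.257. Over all genes the fraction at the top position was above that of its flanks in both libraries in 31 genes and below it in both in 5, with median differences of 0.0463 and 0.0514.

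**Figure D5:**
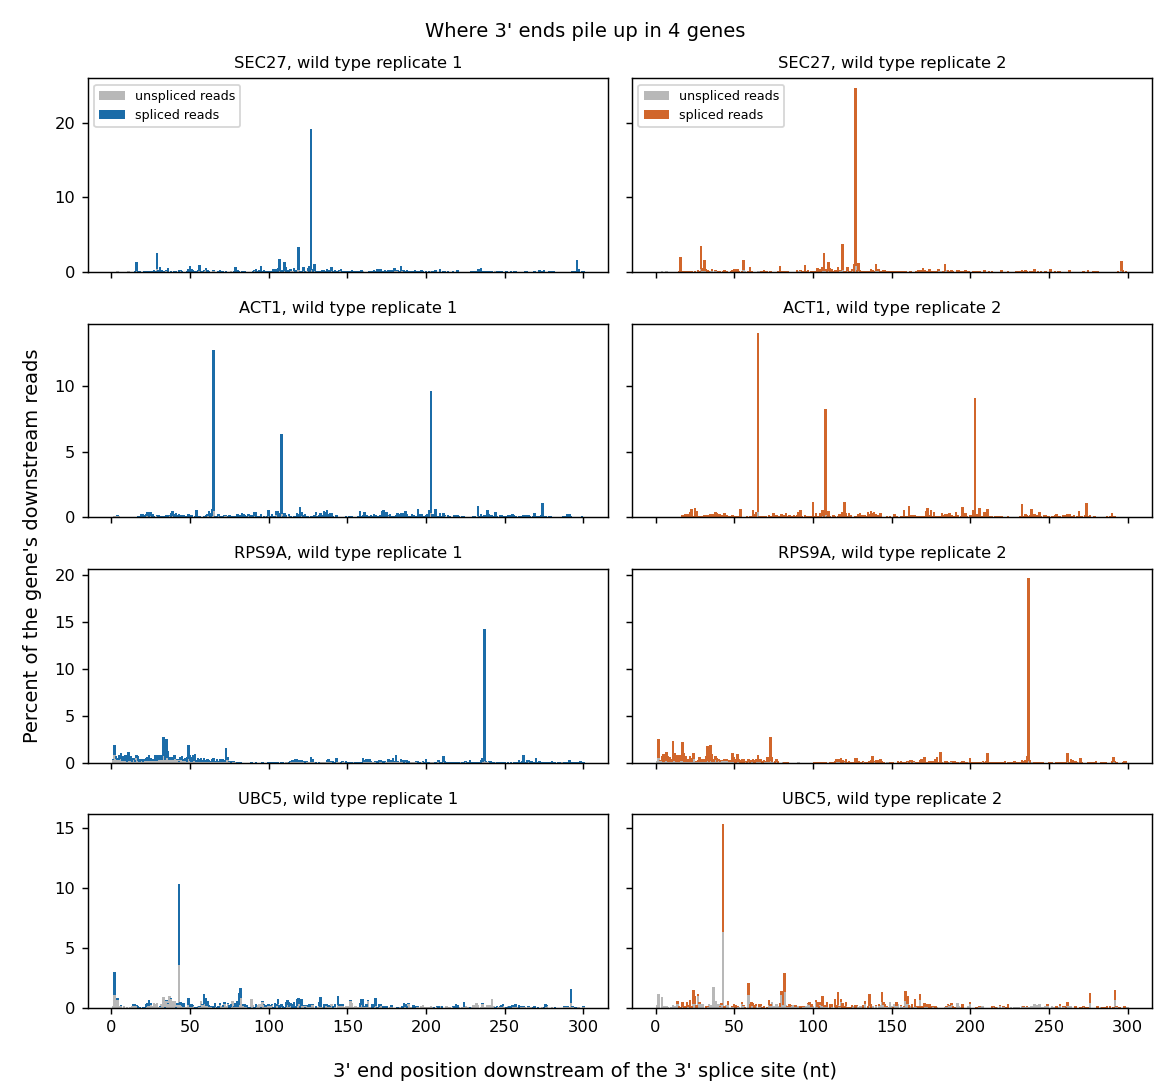
The x axis is the 3' end position in nt past the 3' splice site and the y axis the percent of the gene's downstream reads, unspliced in grey with spliced in colour on top; columns are the libraries. SEC27 at 127, ACT1 at 65, RPS9A at 237 and UBC5 at 43 nt pile up at the same position in both.

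Spliced and unspliced reads did not lie at the same distance. The median 3' end of a gene's spliced reads lay at 161 and 130 nt over genes, against 100 and 88 nt for unspliced reads. In 43 of 47 genes the unspliced median came before the spliced one in both libraries, and in none did it come after in both. Past the coding end, 27 genes had enough reads to compare. There the fraction spliced was higher past the coding end than in the late coding part in both libraries in 21 genes and lower in both in 2. QCR9 was at 0.637 and 0.799 past the coding end, against 0.300 and 0.558 in its late coding part. For RPP1B 66.1% of reads in replicate 1 and 41.7% in replicate 2 lay past the coding end, where it was at 0.985 and 0.987, against 0.959 and 0.985 before it.

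The wild-type curves were set beside those of the deletion strains to see whether they stood apart. The median midpoint over the 48 genes was 16.9 and 10.5 nt in the wild-type libraries, against 11.2 to 18.5 nt (median 12.2) in the 12 deletion libraries (two-sided exact permutation p = 0.824, and 0.868 after Benjamini-Hochberg over 3 measures). The median plateau was 0.790 and 0.849 in the wild type, against 0.628 to 0.906 (median 0.834) in the deletions (exact permutation p = 0.769, adjusted 0.868). Onset gave an exact permutation p of 0.868, and the smallest p this design allows is 0.011. The wild-type libraries lay within the deletion libraries in plateau, and wild-type replicate 2 lay below all 12 in midpoint. Wild-type replicate 2 shares a library-name prefix with the 6 deletion libraries numbered 2, whose plateaus ranged between 0.840 and 0.906, while the 6 numbered 1 ranged between 0.628 and 0.829. The part of that naming series in the difference between the wild-type libraries was not tested.

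The order of plateaus was close to that of SMIT in a different strain and less close to that of long reads from that strain. In Control-AA at 0 min of rapamycin (1 library) the plateau had a Spearman correlation of 0.919 with the wild-type mean over 48 genes, and the midpoint one of 0.628. The median plateau of that library was 0.819. The authors' deposited table of long reads from Control-AA had a Spearman correlation of 0.598 with the wild-type plateau, and the wild-type SMIT plateau was the higher in 46 of 48 genes (median 0.799 against 0.394). Long reads were few for some genes. In the long reads of Control-AA and Nab2-AA the intron gap was seen in 1 read for QCR10 and for IMD4, against 2172 for ACT1. The part of low read numbers in the lower correlation was not tested. The long-read fraction counts whole molecules at 10 min of rapamycin, so rapamycin and method differ together from SMIT at 0 min and cannot be told apart. Against wild-type SMIT the strain differs as well.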

How the data were processed

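SMIT counts per gene and 3' end position were deposited by the authors, per the file headers, with a fraction spliced and a corrected fraction that shifts log2 odds by a constant per intron nt. The submitters' processing notes name the build sacCer3 and the tools bedtools 2.29.2, SAMtools 1.9, cutadapt 1.9.1 and HISAT2 2.1.0 without their roles; whether PCR copies were removed is not given in the sources used here. Per the labels the 3' adapter carried random bases. Intron lengths were recovered from the correction and placed by gaps of the deposited long reads; CMC4 and UBC5 had no matching gap. Gene ends came from RefSeq R64. Long-read values are the fraction in the authors' deposited table, whose read numbers are not stated there.

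Bins needed at least 10 reads and plateaus at least 3 bins. Windows were tested with edgeR 4.0.16 (quasi-likelihood, spliced and unspliced counts, at least 20 reads), with DESeq2 1.42.0 and limma 3.58.1 as alternatives, and scripts ran in Python 3.11.15. Library deviations of early and late log odds correlated at 0.51 over 48 genes, and the pairing comes from the shared library. The pipeline was tested on simulated data. The members, lists and measures were chosen with earlier results of these data known. Named genes were ACT1, the 5 at each end of midpoint (ties kept), plateau and late minus early difference, the 5 largest pile-ups and library differences, paralog pairs, and 2 per list; NMD2, DTD1 and genes named in counts were added after their values were seen.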

Additional observations from a re-analysis of the deposited data

Results flagged for a closer look

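Spliced reads whose 3' end lay upstream of the 3' splice site are outside the measurement, and 6 genes had more than 3 of them in both wild-type libraries. UBC13 had the most, 257 of 2614 upstream reads in replicate 1 (9.83%, exact 95% binomial interval 8.72 to 11.04%) and 68 of 486 in replicate 2 (13.99%, 11.03 to 17.4%). In the 12 deletion libraries its share ranged between 2.46 and 9.85%, and each had more than 3 such reads. The other 5 genes had far smaller shares. ERD2 had 2.05% and 0.531%, SEC14 0.825% and 0.869%, IMD4 0.835% and 0.501%, BIG1 0.689% and 0.12%, and PRE3 0.12% and 0.982%. Over all 48 genes 602 of 274007 upstream reads were spliced in replicate 1 and 178 of 96825 in replicate 2.

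The 5 genes without downstream positions in a library had 44.5% or more spliced reads among the upstream positions that the same library listed. NOG2 had 99.99% spliced (20100 of 20102 reads) at 240 to 100 nt upstream and RPS9B 95.5% at 152 to 100 nt upstream, both in replicate 1. SAC6 in replicate 1 had 44.5% at 1529 to 100 nt upstream. In replicate 2 RPL20A had 100% (315 of 315 reads) at 100 and 99 nt upstream and RPS13 99.0% at 100 to 19 nt upstream. In the library that listed downstream positions these genes had at most 7 spliced upstream reads each. What sets the listed positions is not given in the sources used here.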

How the results depend on the processing

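Genes called higher late numbered 37 with the replicate block, 30 with DESeq2, 34 with limma, 5 with TMM, 5 with DESeq2's size factors in edgeR, 8 with an early window of 1 to 60 nt and 9 with a late window beyond 240 nt, against 1 in edgeR without the block; none was called lower by any of these. The count of 1 included YRA1 under each of them. The median log2 odds ratio moved to 0.11 with TMM, 0.40 with DESeq2's size factors and 1.87 with the shorter early window, and was 1.19 and 1.66 for the single libraries. TMM and DESeq2's size factors scale spliced and unspliced counts separately, which removes part of a shared rise. Median onset (5.70 nt) became 5.81 nt with bins of 5 nt, 10.5 nt with bins of 20 nt, 5.90 nt with 30 reads per bin, 7.05 nt with the corrected fraction, 5.72 nt with a plateau beyond 240 nt and 7 nt with an isotonic curve, and 5.5 nt for either library alone. Median midpoint (13.4 nt) became 20.7 nt with the corrected fraction, and ranged between 10.5 and 16.9 nt for single libraries. Of 33 named genes the midpoint moved by more than the library SD in 19 with the corrected fraction, 22 with an isotonic curve, 17 with bins of 5 nt and 18 with bins of 20 nt, and the plateau in 21 with the corrected fraction. Median plateau (0.799) became 0.719 with the corrected fraction and ranged between 0.790 and 0.849 for single libraries. The median share at the top position (6.21%) became 20.9% over the top 30 nt. No setting took a comparison of wild-type with deletion libraries past 0.05, the replicate block (exact permutation within replicate number, added after seeing the data) included, which gave p = 0.796 for midpoint and 0.633 for plateau. The wild-type midpoint lay 2.85 nt below the deletion mean without replicate 1 (difference -2.85) and 3.54 nt above it without replicate 2. Leaving out a library left no residual spread for the late against early count. Of 763 values recomputed, none reversed a call. Only the log2 odds ratios of named genes and the comparisons with deletion libraries could reverse, and the other values had no direction to reverse. Among midpoints and plateaus of named genes 120 values moved by more than the library SD. With 2 libraries, differences between genes smaller than the library spread could not be resolved, and bins of 10 nt cannot order midpoints within the first bin.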
